A study of Mus musculus with 16 samples.

Results

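The complement components and receptors C1qa, C1qb, C1qc, C2, C3, Cfb, Cfp, C3ar1 and C5ar1 were followed across 16 arrays of mouse bone marrow derived macrophages. All probes that the platform annotation assigns to 1 of these 9 genes were taken, which gave 7 of the 25697 probes in the table, 1 each for 7 genes. C3 and Cfp were not analysed here. Of the 7 probes, 5 (C1qa, C1qb, C1qc, C2 and C5ar1) were detected on 16 of 16 arrays, meaning that they were brighter than nearly all negative control probes (detection p under 0.01). Cfb was detected on 3 of 16 arrays and C3ar1 on 0 of 16.

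The cells came from 12 week old mice on the C57BL6 background, all homozygous for a floxed Ndst1 allele (f/f), which the labels spell Ndfst1. Ndst1 encodes an enzyme that sulfates heparan sulfate chains. Mice without the LysMCre transgene (LysMCre-) carry the wild-type label, and mice with it (LysMCre+), in which Cre made from the myeloid Lyz2 locus deletes the floxed gene, carry the Ndst1-deficient label. Macrophages were grown with macrophage colony stimulating factor and then kept for 24 hours in medium with lipoprotein-deficient serum, without (0 µg/ml) or with 50 µg/ml aggregated LDL (agLDL), which turns macrophages into lipid-laden foam cells. Each label held 2 mice, and each mouse gave 2 arrays per treatment, so that 4 animals gave 4 arrays each. Arrays are named by mouse number and duplicate number (1.1, 1.2, 2.1 and 2.2), and mouse 1 of one genotype is a different animal from mouse 1 of the other. Each genotype lay on a slide of its own, and each number kept the same positions on both slides. On both slides the untreated arrays lay at positions A to D and the agLDL arrays at positions E to H. Genotype and slide therefore cannot be told apart, nor can number and position, nor treatment and position.

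Complement is a cascade of plasma proteins that tags microbes, dying cells and immune complexes for removal. C1q, built from chains encoded by C1qa, C1qb and C1qc, starts the classical pathway and is made mainly by macrophages. C2 supplies the catalytic subunit of the classical pathway convertase, and factor B, encoded by Cfb, supplies that of the alternative pathway convertase, which properdin (Cfp) stabilises. Both convertases split C3, which releases C3a, and the C5 convertases that form from them split C5, which releases C5a. The fragments C3a and C5a act on myeloid cells through the receptors C3ar1 and C5ar1. C2 and Cfb are direct neighbours on mouse chromosome 17, and C1qa, C1qc and C1qb lie side by side on chromosome 4, with 0 annotated genes between the neighbours in either cluster.

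Between 9241 and 10115 probes were detected per array, with a raw 75th percentile of 312 to 386. By deviations from group means, all 16 arrays resembled an array of their own number most closely. Such deviations leave out what the arrays of a group share. The labelled cell type was checked by markers, of which 6 of 6 macrophage genes with a probe were detected (among them Adgre1, Mertk, Fcgr1 and Cd14). None of the 7 dendritic cell and none of the 7 T and NK cell genes was detected, 0 of 3 mast cell and 0 of 3 erythroid genes were, and 1 of 4 B cell genes (Cd79b) was. All 9 neutrophil genes with a probe were detected, and 3 of 11 stromal and endothelial genes were detected on at least 4 arrays.

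RefSeq promoter sequences of build GRCm38.p6, from 250 bases before to 50 bases after the annotated start, were at hand for 6 of the 9 genes, not for C1qa, C2 or Cfb. They are printed for the 3 of the 6 whose probes were detected on all arrays, because they show which letters stand at the start of the brightest complement genes and of the C5a receptor, the member that differed most between duplicate numbers. All 3 lie on the minus strand and are written 5′ to 3′ in the direction of transcription. Capitals mark a match to the PU.1 core GAGGAA in C1qb (chr4:136886151-136886450) and C1qc (chr4:136892865-136893164), and to the interferon-stimulated response element core GAAANNGAA in C5ar1 (chr7:16259289-16259588).
C1qb: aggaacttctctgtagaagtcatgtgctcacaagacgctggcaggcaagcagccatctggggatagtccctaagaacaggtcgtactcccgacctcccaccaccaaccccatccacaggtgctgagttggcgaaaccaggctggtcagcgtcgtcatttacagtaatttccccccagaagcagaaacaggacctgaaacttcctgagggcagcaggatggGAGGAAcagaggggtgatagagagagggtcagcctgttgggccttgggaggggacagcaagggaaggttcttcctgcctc
C1qc: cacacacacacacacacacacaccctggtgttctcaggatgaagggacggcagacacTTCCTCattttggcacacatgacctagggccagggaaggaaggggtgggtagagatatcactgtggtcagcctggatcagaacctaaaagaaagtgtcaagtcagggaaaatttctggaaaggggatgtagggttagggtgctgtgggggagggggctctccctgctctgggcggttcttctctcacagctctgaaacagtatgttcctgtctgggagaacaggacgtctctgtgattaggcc
C5ar1: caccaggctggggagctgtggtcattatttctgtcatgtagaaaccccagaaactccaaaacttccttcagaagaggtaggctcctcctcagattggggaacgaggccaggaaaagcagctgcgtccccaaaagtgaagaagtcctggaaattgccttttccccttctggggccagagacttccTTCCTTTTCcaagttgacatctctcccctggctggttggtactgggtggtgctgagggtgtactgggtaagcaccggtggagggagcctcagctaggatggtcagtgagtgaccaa
PU.1 is a transcription factor of macrophages and other blood cells, and the interferon-stimulated response element is bound by interferon regulatory factors. Both strands were searched. The match in C1qb began at position -30 from the start, the match in C1qc lay on the opposite strand from -193 to -188, and the match in C5ar1 lay on the opposite strand from -66 to -58. Of 32851 promoters of the same length, 28.3% held GAGGAA and 8.56% held GAAANNGAA. The 3 sequences held no match to the AP-1 motif TGANTCA (in 7.81% of promoters), the C/EBP motif TTGCNNAA (10.8%) or the GAS motif TTCNNNGAA (8.3%), which says only that these letters are not in these windows.

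C1qb and C1qc were among the brightest probes of every array. The raw signal of C1qb (probe ILMN_2619620) ran from 34646 to 42691, with ranks between 4 and 14 of 25697. That of C1qc ran from 33548 to 39310, with ranks between 10 and 20. The brightest probe of each array read between 39782 and 45373, so both genes sat near the top of the scale. A change in transcript may be compressed there, which was not tested. For both genes the 2 mouse numbers, duplicate numbers, genotypes and treatments overlapped, and no difference by number is given for them.

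C1qa, the third chain, was bright but within the scale, and it differed by both numbers. On arrays 1.1 its raw signal was 7990 in untreated wild-type, 7829 in wild-type with agLDL, 5973 in untreated Ndst1-deficient and 7515 in Ndst1-deficient macrophages with agLDL. In the same order of groups, arrays 1.2 read 6178, 6649, 5208 and 6681. Arrays 2.1 read 7189, 5234, 6246 and 5640. Arrays 2.2 read 4754, 4056, 4857 and 3676, so they were the lowest array of every group, and their whole range lay below that of each other number. After background correction and quantile normalization, the log2 means were 12.82 ± 0.19 on arrays 1.1, 12.53 ± 0.21 on 1.2, 12.54 ± 0.11 on 2.1 and 12.04 ± 0.20 on 2.2 (SD, n = 4 arrays each). The middle numbers, 1.2 and 2.1, differed by less than their spread.

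Numbers were compared in limma over all 16 arrays, with genotype and treatment group in the model, and p-values were adjusted by Benjamini-Hochberg over all 10224 probes detected on at least 4 arrays. Since 4 arrays share an animal and nothing says how the duplicates were made, these p-values measure a spread that is partly technical. C1qa fell by 0.40 ± 0.09 on the log2 scale from duplicate number 1 to 2 (SE, 8 arrays against 8, 1.32-fold, limma adjusted p = 0.00252). The difference had the same sign in 4 of 4 groups, from -0.42 to -0.36. On the wild-type slide alone it was -0.41 (limma adjusted p = 0.0259), and on the Ndst1-deficient slide -0.39 (limma adjusted p = 0.104). From mouse number 1 to 2 C1qa fell by 0.39 ± 0.09 (1.31-fold, limma adjusted p = 0.00522), with -0.50 on the wild-type slide (limma adjusted p = 0.0221) and -0.28 on the Ndst1-deficient slide (limma adjusted p = 0.289). It was lower in 3 of 4 groups, and in untreated Ndst1-deficient macrophages the mouse numbers differed by 0.002. With the arrays of each animal averaged, so that 4 animals remained, the limma adjusted p was 0.0292. Mouse and duplicate number took 35.9% and 37.9% of the variance of C1qa over the 16 arrays, genotype 2.93% and treatment 0.11%. Fewer cells of a type and less RNA per cell cannot be told apart in such bulk samples.

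**Figure D1:**
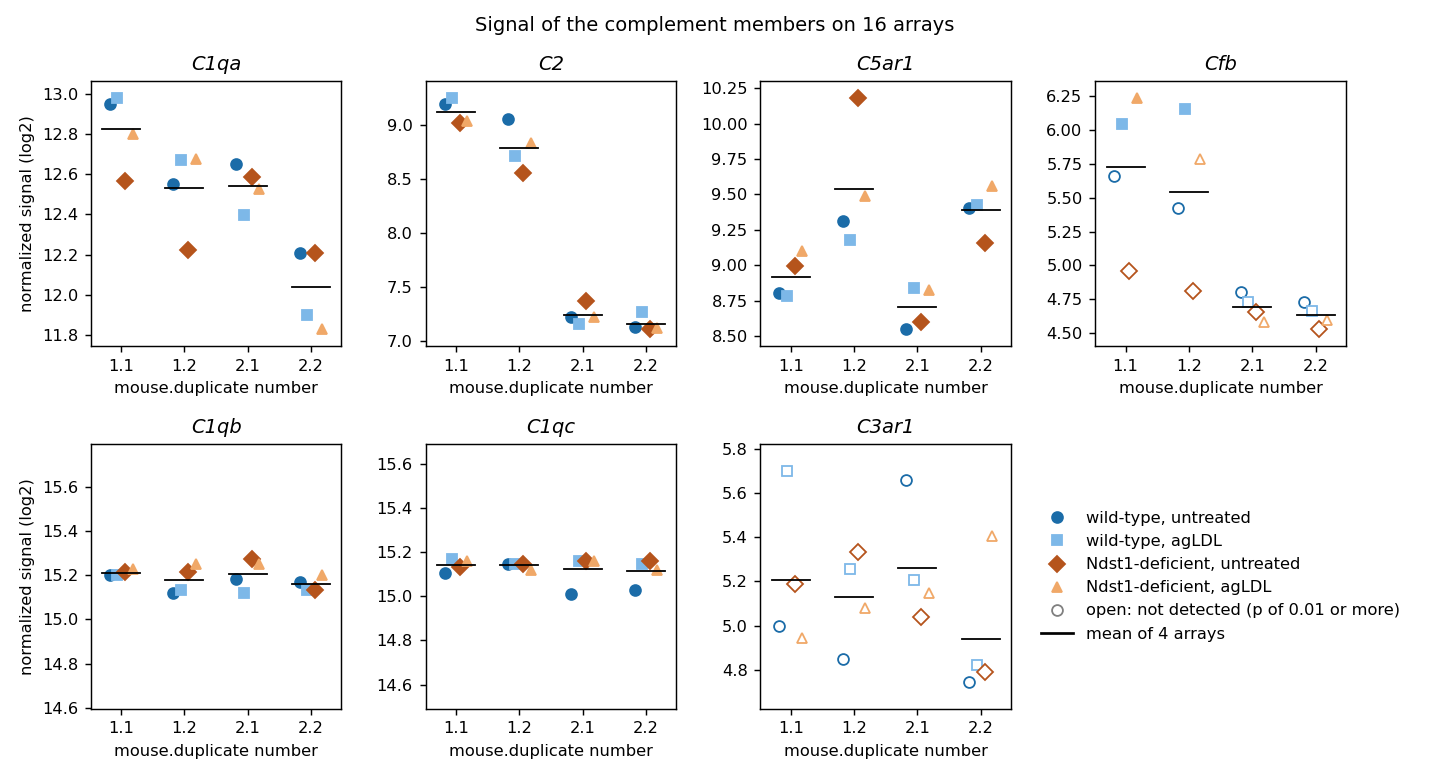
Normalized log2 signal (vertical axis) of the 7 members with a probe on the 16 arrays, by mouse and duplicate number (horizontal axis). Each point is 1 array, its colour and shape give the labelled group, open symbols were not detected, and the bar is the mean of 4 arrays. C2 separates by mouse number (means 9.12 and 8.79 against 7.24 and 7.16), C5ar1 by duplicate number (8.92 and 8.70 against 9.54 and 9.39), and C1qa is lowest on arrays 2.2 (12.04).

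C2 separated the animals by mouse number more clearly than any other member. On arrays 1.1 the raw signal was 688 in untreated wild-type, 684 in wild-type with agLDL, 578 in untreated Ndst1-deficient and 656 in Ndst1-deficient macrophages with agLDL. Arrays 1.2 read 656, 566, 574 and 599 in that order. Arrays 2.1 read 297, 257, 287 and 256, and arrays 2.2 read 261, 287, 261 and 259. All 8 arrays of mouse number 1 lay at 566 or above and all 8 of mouse number 2 at 297 or below, whatever the genotype or treatment. C2 was the one detected member whose mouse numbers did not overlap.

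The log2 means of C2 were 9.12 ± 0.11 on arrays 1.1, 8.79 ± 0.21 on 1.2, 7.24 ± 0.09 on 2.1 and 7.16 ± 0.07 on 2.2 (SD, n = 4 arrays each). From mouse number 1 to 2 the level fell by 1.75 ± 0.07 (SE), which is 3.37-fold (95% interval -1.91 to -1.60, limma adjusted p = 3.6e-09). It was lower in 4 of 4 groups, from -1.95 to -1.54. The difference was -1.86 on the wild-type slide (limma adjusted p = 1.41e-04) and -1.65 on the Ndst1-deficient slide (limma adjusted p = 0.0011), so that each pair of animals showed it. Over the 4 animals it was -1.75 ± 0.09 (limma adjusted p = 2.74e-04). It was -1.88 among arrays of duplicate number 1 and -1.63 among those of duplicate number 2 (limma adjusted p = 1.31e-07 and 3.44e-07). Mouse number took 96.5% of the variance of C2, genotype 0.248% and treatment 0.00243%.

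The duplicate difference of C2 was smaller, -0.21 ± 0.07 (SE, limma adjusted p = 0.0301). That call was lost within either slide (-0.16 and -0.26, limma adjusted p = 0.286 and 0.124), and also without any single one of 7 arrays (limma adjusted p up to 0.0688). It was -0.33 ± 0.10 within mouse number 1 (limma adjusted p = 0.0286), a call lost without the filter on dim probes (limma adjusted p = 0.0502) or without any single one of 5 arrays (limma adjusted p up to 0.0969), and -0.08 ± 0.10 within mouse number 2 (limma adjusted p = 0.566), and the interaction of the numbers did not pass (0.25 ± 0.14, limma adjusted p = 0.731).

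Cfb, the neighbour of C2, was dim. On arrays 1.1 its raw signal was 176 in untreated wild-type, 183 in wild-type with agLDL, 147 in untreated Ndst1-deficient and 204 in Ndst1-deficient macrophages with agLDL. Arrays 1.2 read 169, 198, 144 and 186. Arrays 2.1 read 154, 140, 143 and 133, and arrays 2.2 read 143, 141, 132 and 134. In mouse number 1 it was detected on 3 of 8 arrays, all 3 with agLDL, and in mouse number 2 on 0 of 8. Within each of the 4 groups every array of mouse number 1 was above every array of mouse number 2.

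Cfb did not reach the 4 detected arrays asked of a tested probe, and no fold is given, since its mean over the 8 arrays of mouse number 1 lay below the mean of the dimmest detected probes, although the 3 arrays that detected it lay above. In the table without that filter its mouse numbers differed by limma at an adjusted p of 4.73e-04 (log2 means 5.63 and 4.66). Within mouse number 1, the 4 agLDL arrays (183 to 204) lay above the 4 untreated arrays (144 to 176), with log2 means of 6.06 ± 0.20 and 5.21 ± 0.40 (SD). In mouse number 2 the agLDL arrays read 133 to 141 and the untreated arrays 132 to 154, and they overlapped. This split by mouse number was made after the values were seen and was not tested.

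C5ar1, the C5a receptor, separated the arrays by duplicate number. On arrays 1.1 its raw signal was 551 in untreated wild-type, 528 in wild-type with agLDL, 569 in untreated Ndst1-deficient and 683 in Ndst1-deficient macrophages with agLDL. Arrays 2.1 read 548, 550, 503 and 531 in that order. All 8 arrays of duplicate number 1 therefore lay at 683 or below. Arrays 1.2 read 764, 726, 1445 and 881, and arrays 2.2 read 786, 853, 690 and 865. All 8 arrays of duplicate number 2 lay at 690 or above, and the untreated Ndst1-deficient array 1.2 stood far above the rest.

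The log2 means of C5ar1 were 8.92 ± 0.16 on arrays 1.1, 8.70 ± 0.15 on 2.1, 9.54 ± 0.45 on 1.2 and 9.39 ± 0.17 on 2.2 (SD, n = 4 arrays each). From duplicate number 1 to 2 the level rose by 0.65 ± 0.12 (SE), which is 1.57-fold (95% interval 0.40 to 0.91, limma adjusted p = 5.79e-04). It was higher in 4 of 4 groups, from 0.49 to 0.88, and on both slides (0.59 and 0.72, limma adjusted p = 0.00623 and 0.031). It was 0.62 within mouse number 1 and 0.69 within mouse number 2 (limma adjusted p = 0.0157 and 0.00682). Without the high array the overall value was 0.53 and that within mouse number 1 was 0.38, a change of more than 1.5 times, and both still passed. Between mouse numbers C5ar1 did not pass (-0.19 ± 0.12, limma adjusted p = 0.271). Duplicate number took 64.1% of its variance and mouse number 5.13%.

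C3ar1, the C3a receptor, was not detected on any array. Its raw signal ran from 144 to 185, against array medians of 148 to 161, and arrays overlapped between the genotypes, treatments, mouse numbers and duplicate numbers. Its level lies below what these arrays measure, and no fold is given.

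**Figure D2:**
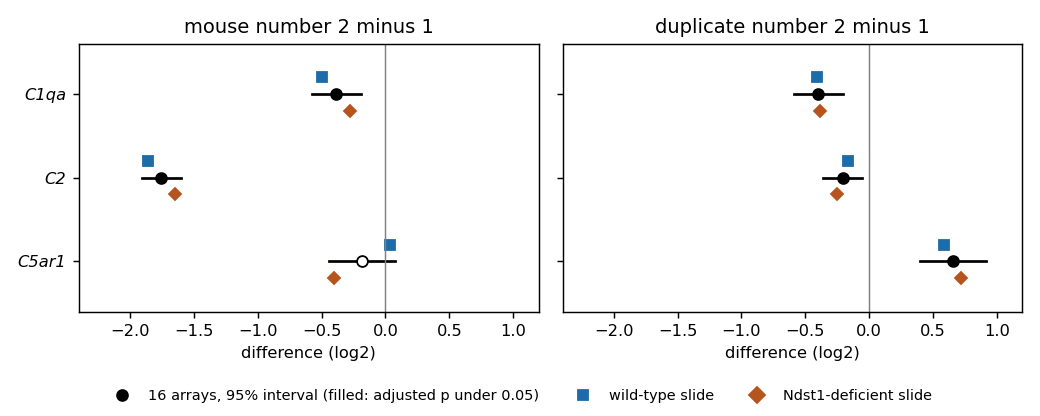
Log2 differences (horizontal axes) of C1qa, C2 and C5ar1 between mouse numbers (left) and duplicate numbers (right). Black circles give the 16-array limma estimate with its 95% interval, filled where the adjusted p is under 0.05, and coloured symbols give the estimate on each genotype's slide. C2 stands at -1.75 between mouse numbers, C5ar1 at 0.65 between duplicate numbers, and C1qa at -0.39 and -0.40.

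Of the 5 tested members, 2 fell (C2 and C1qa) and 0 rose between mouse numbers, and 2 fell (C2 and C1qa) and 1 rose (C5ar1) between duplicate numbers. Such calls were common on these arrays: limma called 30.9% of all 10224 probes between mouse numbers and 46.0% between duplicate numbers, with medians over all probes of 0.01 and -0.01. The 5 members include C1qb and C1qc, near the top of the scale, where a change may be compressed and harder to call. Counts of 2 and 3 of 5 are therefore not weighed against that background, and they are not read as a result about the members. Within mouse number 1, where 26.1% of all probes differed by duplicate, C5ar1 rose and C2 fell, the latter with the losses given above. Within mouse number 2, where 34.2% did, C5ar1 rose and C1qa fell (-0.50 ± 0.13, limma adjusted p = 0.00764). Within duplicate number 1 (17.2% called between mouse numbers) C2 fell, and within duplicate number 2 (15.8%) C2 and C1qa fell. The last call of C1qa (-0.49 ± 0.13, limma adjusted p = 0.0176) was lost when any 1 of 4 arrays was left out (wild-type with agLDL 1.2 and 2.2, Ndst1-deficient with agLDL 1.2 and 2.2). The interaction of mouse and duplicate number passed for 0 of the 5 members and for 0.0782% of all probes.

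C5ar1 and C1qa ran against each other from array to array. Over the 8 arrays of mouse number 1 the Pearson correlation of their log2 levels was -0.887, and over the 8 arrays of mouse number 2 it was -0.953. It was -0.769 over the deviations of 16 arrays from the mean of their number, a value that shares the array with its normalization and carries no p. For C2 and C1qa the values were 0.805 within mouse number 1, 0.429 within mouse number 2 and 0.435 over the deviations from the number means. For C5ar1 and C2 they were -0.858, -0.543 and -0.598. The values within a mouse number include the step between duplicate numbers.

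**Figure D3:**
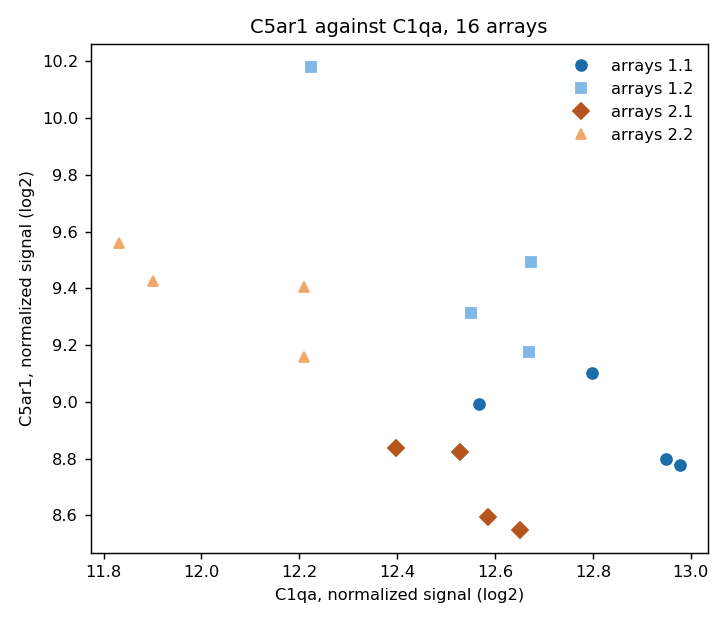
Normalized log2 signal of C5ar1 (vertical axis) against C1qa (horizontal axis) on the 16 arrays, with colour and shape for the mouse and duplicate number. Within each mouse number the arrays with less C1qa tended to hold more C5ar1 (Pearson -0.887 for mouse number 1 and -0.953 for mouse number 2). The value for mouse number 1 includes 1 array with far higher C5ar1 than the rest.

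By Pearson correlation over the 16 arrays among 7077 named genes, the patterns nearest to C2 were those of the chemokine Ccl8 (0.991), the collagen Col5a1 (0.979) and the receptor Slamf9 (0.978). Within the 8 arrays of a mouse number these values were 0.888 and 0.762 for Ccl8, 0.523 and 0.305 for Col5a1, and 0.288 and 0.05 for Slamf9, so most of the likeness to Col5a1 and Slamf9 was the step between mouse numbers. Nearest to C5ar1 were the glycolytic enzyme Pfkp (0.955), the scramblase Plscr1 (0.939) and Coq7, an enzyme of ubiquinone synthesis (0.937). All 3 kept 0.905 or more within each mouse number. Those values still include the step between duplicate numbers, which took 64.1% of the variance of C5ar1, so they do not separate that step from other likeness. Nearest to C1qa were the interferon-inducible GTPase Gbp3 (0.913), the cytokine Il10 (0.909) and the nuclear body gene Pml (0.907). Within mouse numbers 1 and 2 these values were 0.815 and 0.915 for Gbp3, 0.813 and 0.881 for Il10, and 0.722 and 0.925 for Pml. They too include the step between duplicate numbers, which took 37.9% of the variance of C1qa, and do not separate it from other likeness. C1qb was nearest to Katna1 (0.827), Mat2b (0.749) and Lime1 (0.742), and C1qc to Acin1 (0.757), Krtap5-1 (0.729) and Trmt6 (0.708), from levels that only ranks near the top of the scale set.

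The rest of the complement system was read from a list of 48 other genes, of which 41 had a probe, 24 of these were not detected on any array and 15 were tested. Between mouse numbers 5 of the 15 fell and 0 rose, with a median of -0.09 against 0.01 over all probes, and 30.9% of all probes were called there, so the count is near the background. C4b, which encodes the partner of C2 in the classical convertase, fell by 1.81 ± 0.19 (SE, limma adjusted p = 9.76e-06) and was detected on all 8 arrays of mouse number 1 but on 4 of the 8 of mouse number 2. Its mean in mouse number 2 thus rests in part on signals near the background, and the size of the difference is uncertain. Its near-identical copy C4a may share the signal, so the gene behind it is uncertain. The probe assigned to C4a was not detected on any array (raw 134.95 and 135.29 in mouse numbers 1 and 2), and sharing between the probes was not tested. Vsig4, the macrophage receptor for C3b and iC3b, fell by 1.12 ± 0.10 (limma adjusted p = 2.77e-06). The inhibitors of the membrane attack complex Cd59b and Cd59a fell by 0.45 ± 0.06 and 0.27 ± 0.08 (limma adjusted p = 1.55e-04 and 0.0196). Fcna, a ficolin that starts the lectin pathway, fell by 0.18 ± 0.06 (limma adjusted p = 0.0397).

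Between duplicate numbers 4 of the 15 rose and 3 fell, with a median of 0.03 against -0.01 over all probes, and 46.0% of all probes were called there, so this count too is near the background. The C1q-binding chaperone Calr rose by 0.82 ± 0.08 (SE, limma adjusted p = 3.47e-06), and C1qbp, a mitochondrial protein that also binds C1q, rose by 0.62 ± 0.09 (limma adjusted p = 6.91e-05). C4b fell by 0.54 ± 0.19 (limma adjusted p = 0.0293) and C8g, a chain of the membrane attack complex, by 0.44 ± 0.07 (limma adjusted p = 2.94e-04). Of the 2 chains of complement receptor 3, Itgb2 rose and Itgam fell, and Cr1l, a regulator of C3 convertases, rose. The 3 tested genes that encode recognition or activation proteins of the classical and lectin pathways (C4b, Fcna and Fcnb) gave 2 lower and 0 higher calls by mouse number and 1 lower and 0 higher by duplicate number. The 7 tested genes listed as receptors or C1q-binding proteins gave 1 lower (Vsig4) and 0 higher by mouse number, and 3 higher and 1 lower by duplicate number.

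**Figure D4:**
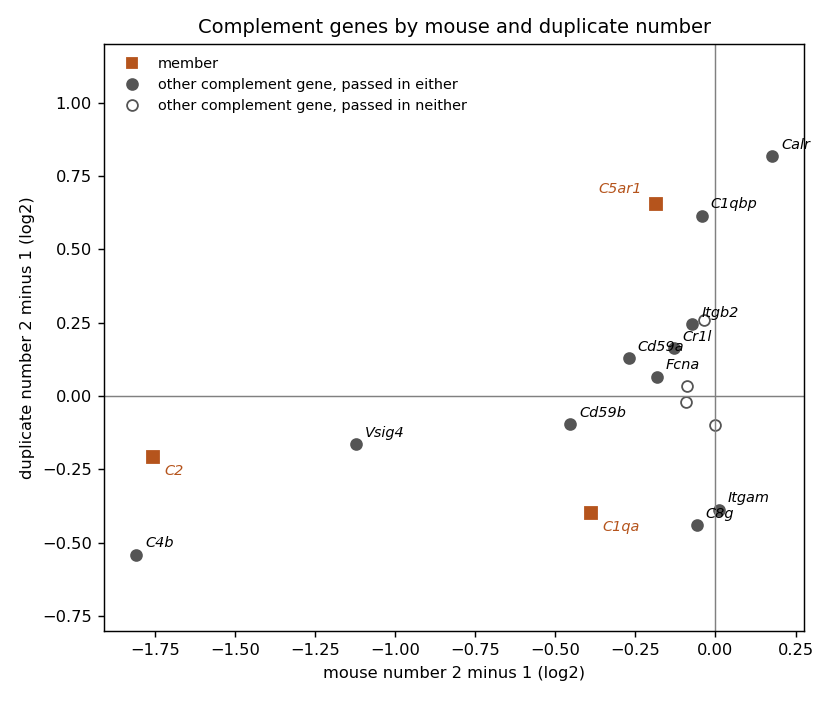
Log2 difference between mouse numbers (horizontal axis) and between duplicate numbers (vertical axis) of C1qa, C2 and C5ar1 (squares) and of the 15 tested other complement genes (circles, filled where either limma comparison passed). C2 (-1.75), C4b (-1.81, with 4 of 8 mouse number 2 arrays undetected) and Vsig4 (-1.12) lie far to the left, and Calr (0.82), C5ar1 (0.65) and C1qbp (0.62) lie highest.

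Some cell type markers also differed by number, on arrays where 30.9% of all probes were called between mouse numbers and 46.0% between duplicate numbers. The marker counts below are to be read beside those shares. All 3 tested stromal genes fell from mouse number 1 to 2, namely the smooth muscle actin Acta2 (-1.66), the matrix gene Sparc (detected on 8 and 0 arrays) and the collagen Col1a1 (detected on 4 and 0 arrays). The direction of Sparc and Col1a1 was fixed by the detection filter, which they passed through mouse number 1 alone. The summed raw signal of the 11 stromal and endothelial probes above the dimmest probe was 2356 to 3630 on arrays of mouse number 1 and 918 to 1233 on arrays of mouse number 2. Most of that gap is Acta2 alone (raw 2265.9 and 791.09 in mouse numbers 1 and 2), so the sum does not stand for the whole list. Dcn, Lum, Pdgfrb and Col3a1 were not detected on any array. Of 9 neutrophil genes, 2 rose (S100a8 and Ltf) from mouse number 1 to 2, and 3 rose (Elane, Mpo and Prtn3) and 2 fell (Ltf and Csf3r) between duplicate numbers. Their summed signal was 14822 to 21105 on arrays of mouse number 1 and 18603 to 26616 on those of mouse number 2. By duplicate number it was 14822 to 26616 for number 1 and 16444 to 21460 for number 2. The B cell gene Cd79b fell between duplicate numbers (-0.81). Of the 6 macrophage genes, 3 rose and 1 fell (Fcgr1, -0.68) from mouse number 1 to 2, and 0 rose and 3 fell between duplicate numbers. The summed macrophage signal was 62969 to 75935 on arrays of duplicate number 1 and 56688 to 62901 on arrays of duplicate number 2, without overlap. This sum is of raw signal and is mostly Lyz2 (raw 39244 and 42099 in mouse numbers 1 and 2), near the top of the scale. After normalization Lyz2 differed by -0.025 between duplicate numbers (limma adjusted p = 0.695). The 3 that fell were Adgre1 (-0.545), Cd14 (-0.543) and Itgam (-0.387; limma adjusted p = 6.06e-06, 2.93e-05 and 0.0117). Mertk (-0.155) and Fcgr1 (-0.176) were not called. Whether the gap between the sums reflects macrophage content was not tested. The part of these cells in the complement differences was not tested.

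The study's own question is how foam cell conversion and loss of Ndst1 change macrophage expression, and limma called none of the tested complement members in a labelled comparison. Here duplicate arrays were averaged, and the 8 resulting values were compared by group with limma. Untreated wild-type macrophages had log2 means of 12.59 ± 0.23 for C1qa, 8.15 ± 1.38 for C2 and 9.02 ± 0.06 for C5ar1 (SD, n = 2 mice). With agLDL they read 12.49 ± 0.48, 8.09 ± 1.25 and 9.05 ± 0.11. Untreated Ndst1-deficient macrophages read 12.40 ± 0.00 for C1qa, 8.01 ± 1.09 for C2 and 9.23 ± 0.50 for C5ar1, and with agLDL they read 12.46 ± 0.39, 8.05 ± 1.25 and 9.24 ± 0.08. By these mouse averages C2 overlapped between all groups. For C1qa, both untreated Ndst1-deficient mice read lower than both untreated wild-type mice, and the genotypes overlapped with agLDL. For C5ar1, both Ndst1-deficient mice read higher than both wild-type mice with agLDL, and the genotypes overlapped without it.

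For agLDL in wild-type macrophages, the 3 members with the smallest p were C1qc (0.08 ± 0.11), C1qa (-0.10 ± 0.27) and C1qb (-0.02 ± 0.11; log2 difference ± SE). In Ndst1-deficient macrophages they were C1qb (0.02 ± 0.11), C1qa (0.06 ± 0.27) and C1qc (-0.01 ± 0.11). C1qa was higher with agLDL on 2 and lower on 2 of the 4 numbers under each genotype. Between genotypes without agLDL they were C5ar1 (0.22 ± 0.22), C1qc (0.08 ± 0.11) and C1qa (-0.19 ± 0.27), and with agLDL C5ar1 (0.19 ± 0.22), C1qb (0.09 ± 0.11) and C1qc (-0.02 ± 0.11). The untreated C5ar1 difference turned to -0.08 without the high Ndst1-deficient array 1.2. In the interaction they were C1qc (-0.10 ± 0.15), C1qa (0.17 ± 0.38) and C1qb (0.05 ± 0.15). The limma adjusted p of all these values rounds to 1. Those of C1qb and C1qc are steps between ranks near the top of the scale, and they do not bear on whether these genes changed.

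In each of the 5 labelled comparisons limma called 0 of the 5 members, 0 of the 15 other complement genes and 0% of the 10224 probes. At an unadjusted p under 0.05 it called 78 and 314 probes for agLDL in wild-type and Ndst1-deficient macrophages, 512 and 272 between genotypes without and with agLDL, and 115 in the interaction. These counts bound little where the numbers differ, because that fit leaves the step between mice in the spread. For C2 the 95% interval of the agLDL difference in wild-type macrophages was -2.30 to 2.19, and a fit of the 16 arrays blocked by number narrowed it to -0.27 to 0.17. In Ndst1-deficient macrophages the blocked interval of C2 was -0.18 to 0.26. For C5ar1 the blocked agLDL intervals were -0.33 to 0.40 and -0.35 to 0.38, and for C1qa -0.38 to 0.17 and -0.21 to 0.33. The blocked genotype interval without agLDL was -0.36 to 0.09 for C2, -0.15 to 0.58 for C5ar1 and -0.47 to 0.08 for C1qa. The blocked fit treats the duplicate arrays of an animal as replicates, and between genotypes it pairs different animals, so its intervals are narrower than 2 mice per group alone would give. A C2 change as large as the 3.37-fold step between mouse numbers lies outside the blocked intervals but inside that of the averaged values.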

How the data were processed

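Total RNA of the macrophages was labelled with biotin and read on Illumina mouse arrays of 1 colour, per the labels. The deposited table gives each probe's mean bead intensity, raw per the file headers. It also gives a detection p-value per probe, deposited by the authors, whose steps imply 798 negative controls. The submitters' processing notes name GenomeStudio without a version. The intensities of the authors' series matrix, whose normalization is unknown, were an alternative (log2 after an offset of 39.25).

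Signals were processed with limma 3.58.1 (statmod 1.5.0) in R 4.3.3: neqc corrected for background (inferred from detection p), then applied quantile normalization and log2 with an offset of 16. Probes with a detection p under 0.01 on at least 4 arrays were tested (10224 of 25697). Of all probes, 23978 had 1 symbol in the platform annotation, 0 several and 1719 none. Labelled comparisons used the 2 arrays of a mouse and treatment averaged (4 residual degrees of freedom), with the group as the only term. Comparisons of numbers used the 16 arrays with group and number as terms (9 residual degrees of freedom), and calls were made at an adjusted p under 0.05 (lmFit, contrasts.fit, eBayes, Benjamini-Hochberg). The number of arrays limits the precision. The fits were also run on simulated data, in which the noise of the arrays was independent. That simulation held no likeness between arrays of an animal or number, so it does not test how such likeness affects the p-values.

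The numbers come from the labels. Deviations from group means correlated between 0.445 and 0.814 in all 24 same-number pairs and by at most 0.34 in other pairs, so the number served as a block in an alternative. Alternatives also changed the background correction, the source of values, the filter, the probe choice and the arrays left out. The members, gene lists and tests were chosen with earlier results of these data known. Named were all members, the 3 members with the smallest p in each labelled comparison, the other complement genes with the largest called differences (up to 6 by mouse and 4 by duplicate number) and the 3 nearest patterns per tested member. Itgb2, Itgam, Cr1l and the cell markers were named after their values were seen.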

Additional observations from a re-analysis of the deposited data

Results flagged for a closer look

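In total, 4 values stood apart from the other arrays of their number among 56 sets of 4 arrays examined, and chance alone sets apart about 1 set in 20. C2 read 7.266 on the wild-type agLDL array 2.2, against 7.114 to 7.130 on the other arrays 2.2 (log2). C3ar1 read 5.405 on the Ndst1-deficient agLDL array 2.2, against 4.746 to 4.822 on the others, at signals that were not detected. C1qc read 15.119 on the Ndst1-deficient agLDL array 1.2, against 15.148 on the other arrays 1.2, and 15.011 on the untreated wild-type array 2.1, against 15.161 on the other arrays 2.1. Both C1qc values are steps between ranks near the top of the scale. The other arrays of those sets are tied, so any differing value stands apart there and the chance rate does not apply to them.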

How the results depend on the processing

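C2 and C1qa between mouse numbers and C5ar1 and C1qa between duplicate numbers passed under every alternative over 16 or 15 arrays, and under the 4-animal averages where that applied, with C2 between -1.80 and -1.71 when 1 array was left out. C1qa was the exception within the Ndst1-deficient slide. The C2 duplicate difference passed by a narrow margin and was lost without the dim-probe filter (limma adjusted p = 0.0537), as was that within mouse number 1 (limma adjusted p = 0.0502, and lost without any 1 of 5 arrays). The number as a replicate block on the 16 arrays called 1 probe for agLDL in Ndst1-deficient macrophages, 27 between genotypes without agLDL and 1 with agLDL. The mouse number as a block on the averages called 1 between genotypes without agLDL, and the animal as a random block called 1, 2 and 1 in those 3 comparisons. None was a complement member, and the blocks changed no call of a member. Between mouse numbers 1359 and 902 probes were called within the wild-type and Ndst1-deficient slides and 2099 over the 4 animals, against 3158. Between duplicate numbers 2780 and 2425 were called within those slides, against 4708, with fewer arrays in each such fit. The interaction of the numbers called 8 probes, 32 after quantile normalization without background correction, and 0 to 29 with 1 array left out. Mouse number within duplicate number 1 called 1759 probes, and 1039 to 2229 with 1 array left out (the lowest without the untreated wild-type array 1.1).

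Uncalled differences that changed sign were those of C1qb for agLDL in Ndst1-deficient macrophages (-0.076) and in the interaction (-0.044) with the authors' matrix values, and of C5ar1 between mouse numbers on the wild-type slide (0.037). With 1 array left out, the range was -0.23 to 0.020 for C1qa and agLDL in wild-type, -0.11 to 0.24 for C1qa and -0.011 to 0.059 for C1qb in Ndst1-deficient macrophages, -0.082 to 0.51 for C5ar1 between untreated genotypes, -0.0097 to 0.34 for C1qa in the interaction, -0.061 to 0.31 for C5ar1 in the interaction of the numbers, -0.13 to 0.0013 for the C2 duplicate difference within mouse number 2, and -0.28 to 0.089 for C5ar1 between mouse numbers within duplicate number 2. The cause of these changes was not tested. Signal limits the rest: C1qb and C1qc lie near the top of the scale, and Cfb and C3ar1 near the background.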
